A study of Mus musculus with 14 samples.

Results

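The genes described here are the 4 Ndrg genes (Ndrg1, Ndrg2, Ndrg3 and Ndrg4) and 6 genes of the Myc-Mxd network (Myc, Mycn, Mxd1, Mxd3, Mxd4 and Mxi1), 10 genes of the 23647 kept in the OB set and the 54632 kept in the PD set. They were taken by name, and the set was picked because Ndrg2 was lower after compound PD. Levels after compound PD are therefore given as a description, with no test, while levels after compound OB, which the stated reason for the choice does not name, were tested. RNA came from BFU-E (burst-forming unit-erythroid cells, labelled as early erythroid progenitors) of C57BL/6 mouse fetal liver, cultured in StemSpan SFEM II medium. There were 12 libraries in 4 groups of 3: compound OB at 100 µM, DMSO solvent controls of the OB set, compound PD at 3 nM, and separate DMSO controls of the PD set. The labels name no further treatment, time in culture or embryonic age, and do not say that replicates came from separate animals or cultures. P-values thus measure only the spread between these samples, which may be technical.

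The Ndrg genes were named as N-myc downstream-regulated genes, because the first member was found as a transcript held down by MYC proteins. Their products share an alpha/beta hydrolase fold with no known enzyme activity. NDRG1 is known for its induction in stress, low oxygen and maturing cells, NDRG2 as a growth-restraining protein abundant in brain, muscle and liver, and NDRG4 as a protein of brain and heart. MYC and MYCN pair with MAX, bind the E-box CACGTG and activate genes of growth. The MXD proteins (MXD1, MXD3, MXD4 and MXI1, also called MXD2) pair with the same MAX, bind the same sites and repress through SIN3, and a handover from MYC to MXD proteins goes with maturation in many lineages, the red cell lineage among them.

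All 10 genes lie on mouse chromosomes at separate loci, given here in the GRCm38.p6 assembly of RefSeq, the assembly that mm10 names. The Ndrg genes are at chromosome 15, 66929318 to 66969641 (Ndrg1), chromosome 14, 51905271 to 51914004 (Ndrg2), chromosome 2, 156927342 to 156992132 (Ndrg3) and chromosome 8, 95676974 to 95714956 (Ndrg4). Myc is at chromosome 15, 61985341 to 61990361, and Mycn at chromosome 12, 12936093 to 12941836. The Mxd genes are at chromosome 6, 86647044 to 86669234 (Mxd1), chromosome 13, 55325170 to 55329900 (Mxd3), chromosome 5, 34176580 to 34187710 (Mxd4) and chromosome 19, 53310128 to 53373293 (Mxi1). Each is a protein-coding gene in that annotation.

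RefSeq promoter windows of GRCm38.p6, each with 250 bases before and 50 after an annotated start, matched 8 of the 10 genes by symbol and gave 16 windows. Ndrg1 and Myc had none. The E-box CACGTG, which reads the same on both strands, was in 2 of the 16 windows, against 7.15% of all 32851 windows. The matches were in 1 of 4 windows of Ndrg4 and in the window of Mxd4, and none of the 3 windows of Ndrg2 held these letters. A match is a string of letters and not a measured binding site. The Ndrg2 window at the 5′-most start (chr14:51913955-51914254, minus strand) is shown because Ndrg2 is the gene the set was picked for. The Ndrg4 window (chr8:95677513-95677812, plus strand) and the Mxd4 window (chr5:34187661-34187960, minus strand) are shown with the E-box in capitals, whose first letter lies 38 bases before the start in Ndrg4 and 219 bases before it in Mxd4.
Ndrg2: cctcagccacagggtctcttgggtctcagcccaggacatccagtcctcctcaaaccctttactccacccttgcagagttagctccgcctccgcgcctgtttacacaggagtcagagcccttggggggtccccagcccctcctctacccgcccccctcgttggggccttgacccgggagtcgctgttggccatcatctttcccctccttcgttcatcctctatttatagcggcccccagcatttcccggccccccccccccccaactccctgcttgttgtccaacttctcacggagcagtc
Ndrg4: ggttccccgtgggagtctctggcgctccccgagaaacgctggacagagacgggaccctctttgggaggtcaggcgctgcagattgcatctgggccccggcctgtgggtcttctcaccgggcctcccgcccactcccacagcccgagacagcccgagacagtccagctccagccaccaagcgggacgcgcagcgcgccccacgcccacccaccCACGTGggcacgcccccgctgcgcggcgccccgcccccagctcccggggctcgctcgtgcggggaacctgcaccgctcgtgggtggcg
Mxd4: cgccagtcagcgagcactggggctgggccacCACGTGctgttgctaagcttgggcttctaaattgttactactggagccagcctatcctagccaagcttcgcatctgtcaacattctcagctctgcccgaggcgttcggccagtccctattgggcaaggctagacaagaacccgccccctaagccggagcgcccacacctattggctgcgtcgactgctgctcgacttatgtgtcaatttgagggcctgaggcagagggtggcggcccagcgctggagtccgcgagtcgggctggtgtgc

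Levels below are FPKM (fragments per kilobase of gene, scaled to the mapped fragments of the library), so they can be set beside each other between genes. Differences are of log2(FPKM + 1), compound minus its own DMSO, which understates the change of low genes. A gene was tested where its mean over the 6 libraries of a set was at least 1 FPKM, and all 10 genes were above that in both sets. The 2 sets list different numbers of gene names (24054 and 54752) and their annotation is not given. A level of one set beside the other is therefore a description.

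The libraries were checked against markers of the labelled cells. Gata1, the main erythroid transcription factor, was at 132 to 185 in the OB set and 132 to 142 in the PD set, and 10 of 12 erythroid markers in the OB set and 11 of 12 in the PD set were listed (Ahsp and, in the OB set, Epb42 were not used here). Summed erythroid markers were 2132 to 2462 in OB DMSO, 2282 to 2400 in compound OB, 2234 to 4794 in PD DMSO and 1738 to 2520 in compound PD. The top value was PD DMSO replicate 1, where Slc4a1, the red cell anion exchanger, was 1441 against 412 and 419 in the other PD DMSO libraries. Early progenitor markers (8 of 8 listed) summed to 359 to 447 in OB DMSO and 467 to 486 in compound OB. In the PD groups they summed to 320 to 372 in DMSO and 348 to 428 with compound PD. Kit was 25.85, 23.1 and 23.2 in OB DMSO and 36.8, 41.7 and 36.0 with compound OB. In the PD set Kit was 20.4, 21.8 and 22.7 in DMSO and 41.2, 28.8 and 27.1 with compound PD. Lmo2 was 183, 160 and 163 in PD DMSO and 157, 151 and 153 with compound PD. Markers of other cells also differed. Neutrophil markers (10 of 10 listed) summed to 11372 to 17181 in PD DMSO and 29100 to 36549 in compound PD, against 144 to 578 in OB DMSO and 164 to 483 in compound OB. Not all of these genes separated the PD groups. S100a9 was 5146, 7881 and 7528 in PD DMSO and 14066, 14088 and 17904 with compound PD. Mpo was 428, 556 and 560 in PD DMSO and 933, 463 and 422 with compound PD. Ctsg was 133, 188 and 165 in PD DMSO and 258, 128 and 131 with compound PD. Megakaryocyte markers (8 of 8) summed to 2421 to 4749 and 4437 to 7809 in the PD groups and 490 to 1400 and 599 to 1002 in the OB groups. Mast cell and basophil markers (8 of 8) summed to 816 to 1559 in PD DMSO, 1379 to 2832 in compound PD and at most 30.3 in the OB set. Members of that list went different ways in the PD set: Cpa3 was 581, 334 and 318 in DMSO and 1023, 523 and 552 with compound PD, while the basophil protease Prss34 was 1.3, 31.8 and 31.5 in DMSO and 2.6, 2.96 and 2.37 with compound PD. Fcer1a, a defining receptor chain of those cells, was at 0 in PD DMSO replicate 1 and in compound PD replicates 1 and 3. Hepatocyte markers (9 of 9) summed to at most 6.44 in all libraries, with Ttr at 0 in all 12. The part of these cells in the results below was not tested, and in bulk RNA fewer cells of a type and less RNA per cell cannot be told apart.

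**Figure D1:**
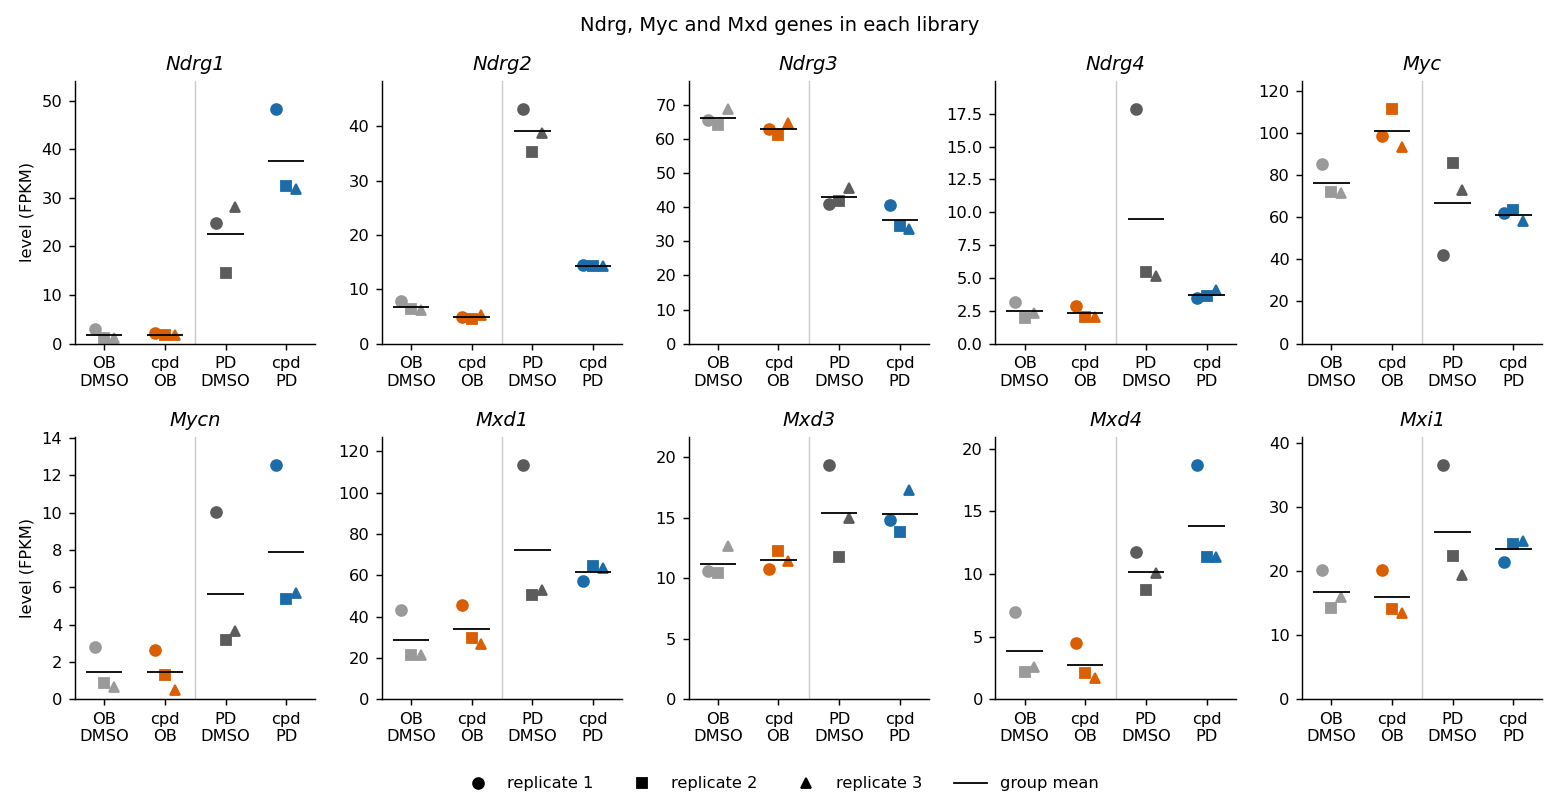
Levels in FPKM (vertical axis, linear from 0, own scale for each gene) of the 10 genes in the 12 libraries, with groups on the horizontal axis, marker shape for the replicate number and a bar for the group mean. The 3 compound PD libraries sit between 14.2 and 14.5 for Ndrg2, below the PD DMSO libraries at 35.2 to 43.1. PD DMSO replicate 1 is the highest of its group for Ndrg2, Ndrg4, Mycn, Mxd1, Mxd3, Mxd4 and Mxi1. It is the lowest of its group for Myc and Ndrg3.

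Ndrg2 was lower with each compound than in its own DMSO libraries. In the PD set it was 43.1, 35.2 and 38.8 in DMSO replicates 1, 2 and 3, and 14.5, 14.2 and 14.3 with compound PD. The groups do not overlap, and the coefficient of variation was 0.997% over the 3 compound libraries and 10.1% over the DMSO libraries. The mean went from 39.1 ± 3.96 to 14.3 ± 0.143 (SD, n = 3), a change of −63.3% (log2 −1.38, SE 0.16), and this is the value that chose the set. It is the 39th lowest difference of 11901 genes tested. Leaving out any 1 library gave −1.45 to −1.31.

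In the OB set Ndrg2 was 7.84, 6.41 and 6.1 in DMSO and 4.80, 4.50 and 5.23 with compound OB. Every compound OB library was below every DMSO library. Each was therefore also below the DMSO library of its own replicate number, by 0.61, 0.43 and 0.19 on the log2 scale. The mean went from 6.78 ± 0.928 to 4.84 ± 0.367 (SD, n = 3; log2 −0.41, SE 0.13), a change of −28.6%. This did not pass the limma test over 10104 genes (adjusted p = 1.00, unadjusted p = 0.0173, and adjusted p = 0.257 with replicates as a block). Leaving out any 1 library gave −0.47 to −0.31. Across the 4 groups the order of Ndrg2 levels was PD DMSO, compound PD, OB DMSO and compound OB, and no neighbours in that order overlap.

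Ndrg1, the stress- and hypoxia-induced member, was 24.8, 14.6 and 28.1 in PD DMSO and 48.3, 32.5 and 31.8 with compound PD. The groups do not overlap, with means of 22.5 ± 7.05 and 37.5 ± 9.31 (SD, n = 3; log2 0.74, SE 0.27), so Ndrg1 and Ndrg2 differed from DMSO in opposite directions in the same libraries. Leaving out 1 library gave 0.47 (without PD DMSO replicate 2) to 0.92 (without PD DMSO replicate 3). Its highest library, compound PD replicate 1, also had the highest summed mast cell and basophil markers (2832, against 1379 and 1397 in the other compound PD libraries) and megakaryocyte markers (7809, against 4437 and 4896), and the lowest summed erythroid markers (1738, against 2520 and 2470). The part of these cells in the Ndrg1 level was not tested. In the OB set Ndrg1 was low, at 3.05, 1.13 and 1.06 in DMSO and 2.16, 1.71 and 1.68 with compound OB. Those groups overlap (log2 0.12, SE 0.27, limma adjusted p = 1.00). The difference went to −0.02 and −0.05 when DMSO replicates 2 and 3 were left out in turn, and to 0.44 when DMSO replicate 1 was.

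Ndrg3 was the most abundant Ndrg gene of the OB set. It was 65.6, 64.3 and 68.8 in OB DMSO and 63.2, 61.3 and 64.7 with compound OB (means 66.3 ± 2.33 and 63.1 ± 1.71, SD, n = 3), and the groups overlap (log2 −0.07, SE 0.08, limma adjusted p = 1.00). In the PD set it was 41.0, 41.9 and 45.8 in DMSO and 40.6, 34.5 and 33.6 with compound PD. The PD groups do not overlap, but the nearest libraries are 40.6 and 41.0 (means 42.9 ± 2.55 and 36.2 ± 3.84, SD, n = 3; log2 −0.24, SE 0.15).

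Ndrg4 was at 5.48 or below in all libraries but PD DMSO replicate 1. It was 17.9, 5.48 and 5.17 in PD DMSO and 3.44, 3.59 and 4.06 with compound PD, so every compound library is below every DMSO library. The log2 difference was −0.96 (SE 0.40) with all libraries and −0.43 (SE 0.20) without PD DMSO replicate 1, the library with the highest erythroid markers. In the OB set it was 3.18, 1.96 and 2.32 in DMSO and 2.84, 2.04 and 1.99 with compound OB, which overlap (log2 −0.08, SE 0.18, limma adjusted p = 1.00).

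The Ndrg family was made up differently in the 2 sets. Ndrg3 gave 82.3% to 87.9% of the summed Ndrg level in OB DMSO and 86.6% to 88.1% in compound OB, while Ndrg2 gave 7.79% to 9.84% and 6.47% to 7.11%. In PD DMSO the share of Ndrg2 was 33.0% to 36.3% and that of Ndrg1 14.97% to 23.8%. With compound PD the share of Ndrg2 was 13.6% to 17.1% and that of Ndrg1 37.9% to 45.2%. Ndrg3 gave 32.3% to 43.1% in PD DMSO and 38.0% to 40.7% with compound PD. Apart from Ndrg3, the most abundant member was Ndrg2 in the PD DMSO libraries and Ndrg1 in the compound PD libraries. Ndrg2 was above Ndrg3 in PD DMSO replicate 1 (34.0% against 32.3%). Ndrg1 was above Ndrg3 in compound PD replicate 1 (45.2% against 38.0%). The summed Ndrg level was 97.2 to 127 in PD DMSO and 83.7 to 107 in compound PD, and these ranges overlap.

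**Figure D2:**
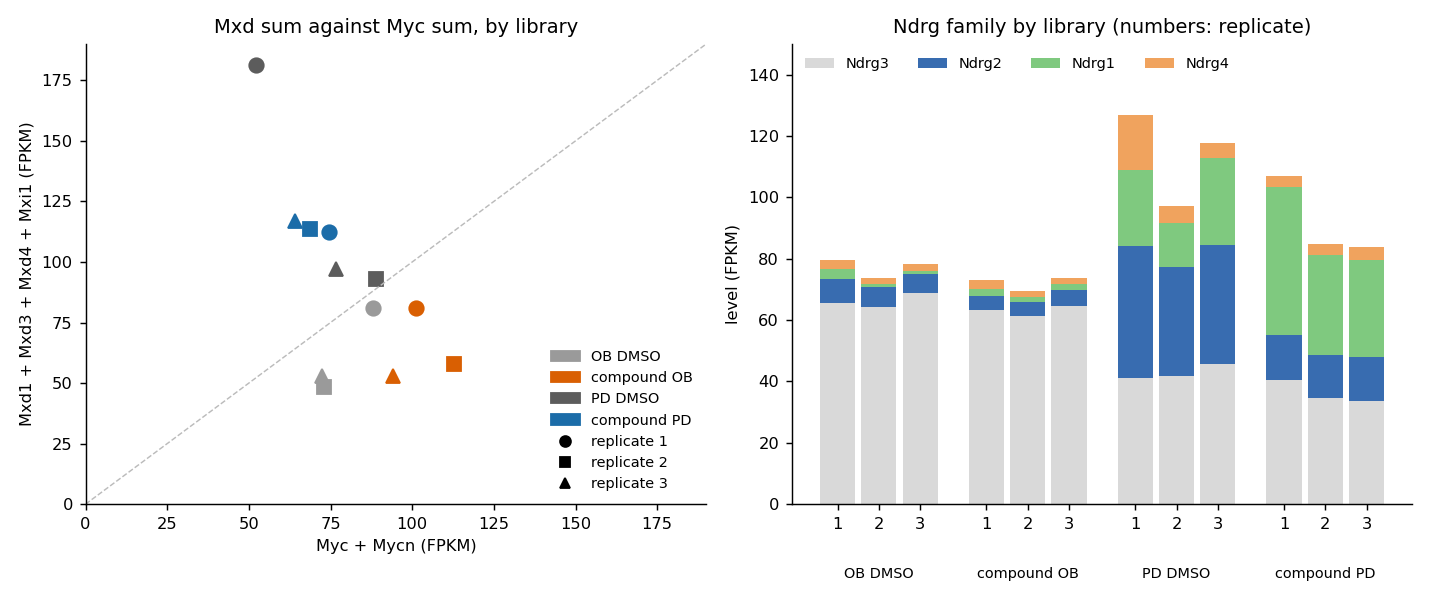
Left, summed FPKM of Mxd1, Mxd3, Mxd4 and Mxi1 (vertical axis) against summed FPKM of Myc and Mycn (horizontal axis), 1 point a library, colour for the group, shape for the replicate, with a dashed line where both sums are equal; right, FPKM of the 4 Ndrg genes stacked for each library. PD DMSO replicate 1 lies apart at 181 for the Mxd sum and 52.2 for the Myc sum, and Ndrg2 takes 13.6% to 17.1% of the Ndrg sum in the compound PD libraries.

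Myc, the more abundant of Myc and Mycn in every library, was higher with compound OB. It was 85.3, 72.2 and 71.8 in OB DMSO and 98.5, 111 and 93.5 with compound OB. The groups do not overlap, so every compound library was also above the DMSO library of its number, by 0.20, 0.62 and 0.38 on the log2 scale. The mean went from 76.4 ± 7.71 to 101 ± 9.23 (SD, n = 3; log2 0.40, SE 0.11), 32.3% higher, and did not pass over all genes in limma (adjusted p = 1.00, unadjusted p = 0.00899, and adjusted p = 0.21 with replicates as a block). Leaving out any 1 library gave 0.33 to 0.48.

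In PD libraries Myc was 42.2, 85.7 and 73.0 in DMSO and 62.0, 63.4 and 58.3 with compound PD. The compound libraries lie inside the range of the DMSO libraries (means 66.9 ± 22.4 and 61.2 ± 2.63, SD, n = 3; log2 −0.07, SE 0.25). The direction rests on the DMSO library left out. It was −0.36 (SE 0.11) without PD DMSO replicate 1, 0.14 without replicate 2 and 0.02 without replicate 3.

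Mycn, which encodes the N-MYC protein the Ndrg genes are named for, was far below Myc. It was 2.80, 0.88 and 0.64 in OB DMSO and 2.65, 1.27 and 0.49 with compound OB, where replicate 1 of each group was highest (log2 0.03, SE 0.42, limma adjusted p = 1.00). It was 10.02, 3.15 and 3.67 in PD DMSO and 12.6, 5.39 and 5.71 with compound PD, and replicate 1 was highest there too (log2 0.48, SE 0.42). That difference rests on the libraries numbered 1, at 0.92 without PD DMSO replicate 1 and 0.13 without compound PD replicate 1, and it was 0.22 without PD DMSO replicate 2 and 0.30 without PD DMSO replicate 3. Mycn took 0.521% to 3.18% of the summed Myc and Mycn level in the OB set, and 3.55% to 8.92% in the PD set outside the libraries numbered 1, which had 19.2% in DMSO and 16.9% with compound PD.

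Mxd1, the MYC antagonist first described in maturing blood cells, was the most abundant Mxd gene in every group by its mean. It was 43.3, 21.6 and 21.6 in OB DMSO and 45.7, 29.7 and 26.6 with compound OB. The groups overlap, while within each replicate number the compound library was higher, by 0.08, 0.44 and 0.29 on the log2 scale (all libraries 0.27, SE 0.32, limma adjusted p = 1.00; SE 0.09, unadjusted p = 0.0221, adjusted p = 0.299 with replicates as a block), and the difference ran from 0.04 without compound OB replicate 1 to 0.59 without OB DMSO replicate 1. It was 0.11 without either of the other OB DMSO libraries. PD libraries had 114, 50.3 and 52.7 in DMSO and 57.3, 64.3 and 63.7 with compound PD. The log2 difference was −0.12 (SE 0.29), and it turned to 0.26 (SE 0.10) without PD DMSO replicate 1, since all 3 compound libraries lie above the other DMSO libraries.

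Mxi1 was 20.1, 14.3 and 16.0 in OB DMSO and 20.2, 14.01 and 13.5 with compound OB (log2 −0.09, SE 0.19, limma adjusted p = 1.00). In PD DMSO it was 36.6, 22.3 and 19.4, and with compound PD 21.4, 24.2 and 24.7. Its log2 difference of −0.10 (SE 0.24) in the PD set turned to 0.16 without PD DMSO replicate 1. Mxd1 and Mxi1 thus had their highest level in the same library, the one with the highest Slc4a1, as did Ndrg2, Ndrg4 and Mxd3.

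Mxd4 was 6.92, 2.15 and 2.56 in OB DMSO and 4.51, 2.12 and 1.66 with compound OB. Replicate 1 was highest in each group, and each compound library was below the DMSO library of its number (log2 −0.32, SE 0.42, limma adjusted p = 1.00; SE 0.13, unadjusted p = 0.0466, adjusted p = 0.329 with replicates as a block). Without OB DMSO replicate 1 the difference was 0.09. Its PD levels were 11.7, 8.75 and 10.1 in DMSO and 18.7, 11.3 and 11.3 with compound PD, where the groups overlap (log2 0.38, SE 0.24, and 0.15 without compound PD replicate 1).

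Mxd3, the member tied to dividing cells, varied least among the Mxd genes of the OB set. It ranged from 10.4 to 12.6 in OB DMSO and from 10.7 to 12.2 with compound OB (log2 0.03, SE 0.12, limma adjusted p = 1.00). It was 19.4, 11.7 and 14.98 in PD DMSO and 14.8, 13.8 and 17.3 with compound PD (log2 0.02, SE 0.21). Its sign changed with the scaling of the libraries in both sets, to −0.01 with quantile normalization in the OB set and to −0.07 and −0.09 with median-ratio scaling and quantile normalization in the PD set.

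The summed Mxd level was 0.919, 0.663 and 0.729 times the summed Myc and Mycn level in OB DMSO, and 0.802, 0.515 and 0.565 times with compound OB. Each compound OB library had a lower ratio than the DMSO library of its number, but the groups overlap. In PD DMSO the ratio was 3.47, 1.05 and 1.27, and with compound PD 1.51, 1.65 and 1.83. The compound PD libraries lie above the DMSO libraries 2 and 3 and below PD DMSO replicate 1.

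Of the 10 genes, 2 had groups that do not overlap after compound OB (Myc higher, Ndrg2 lower), against 8.73% of all genes tested (5.32% higher and 3.4% lower). None of the 10 passed an adjusted p of 0.05 in limma, against 0% of the 10104 genes, and with replicates as a block 0 of 10 passed, against 0.0693%. An unadjusted p under 0.05 was reached by 2 of 10 genes (3.68% of all genes), and by 4 of 10 with the block (14.9% of all genes). After compound PD 4 of 10 had groups that do not overlap (Ndrg1 higher, Ndrg2, Ndrg3 and Ndrg4 lower), against 16.8% of 11901 genes (13.1% higher and 3.71% lower). The set was chosen on that contrast, so nothing is read from this count. The median difference of the 10 genes was −0.02 after compound OB and −0.08 after compound PD, against 0.03 and 0.06 over all genes tested.

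**Figure D3:**
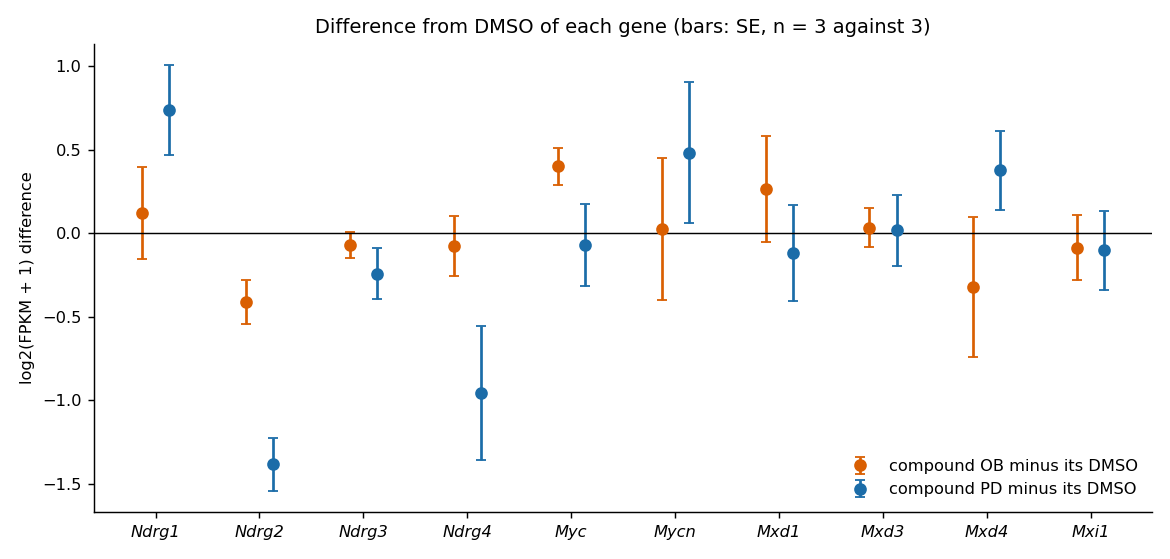
Difference of log2(FPKM + 1) from DMSO (vertical axis) for the 10 genes (horizontal axis) after compound OB and compound PD, with points for the difference and bars for its SE from limma (n = 3 against 3). Ndrg2 lies below 0 for both compounds, at −0.41 and −1.38, and Myc lies at 0.40 after compound OB and −0.07 after compound PD.

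The partners that MYC and MXD proteins share were also measured. Of 7 further genes of the network, 5 were tested in each set and none passed in limma after compound OB or compound PD. MAX is the shared partner, and its RNA was 52.7 ± 6.43 under OB DMSO against 56.0 ± 2.09 under compound OB (SD, n = 3; log2 0.09, adjusted p = 1.00), and 64.0 ± 9.55 and 62.3 ± 14.2 in the PD groups (log2 −0.05, adjusted p = 0.975). MLX, the partner of the sugar-sensing branch, was at 47.5 ± 0.38 and 44.6 ± 2.91 in the OB groups (log2 −0.09) and 44.8 ± 8.81 and 46.2 ± 3.62 in the PD groups (SD, n = 3; log2 0.06). Mlxip, which encodes its partner MondoA, had log2 differences of 0.15 after compound OB and 0.19 after compound PD. Mnt, a MAX-bound repressor, had 0.22 and 0.22, and Mga, a large MAX-bound repressor, −0.13 and −0.19. Mlxipl and Mycl were under the filter in both sets.

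Mga levels followed the replicate number in the OB set. They were 5.2, 10.7 and 11.3 in DMSO and 4.84, 9.85 and 9.84 with compound OB, so both libraries numbered 1 were low and each compound library was below the DMSO library of its number (limma SE 0.08 and adjusted p = 0.451 with replicates as a block, against an SE of 0.35 without it). In the PD set it was 10.8, 23.8 and 19.4 in DMSO and 16.5, 15.1 and 13.4 with compound PD. PD DMSO replicate 1 was thus lowest for Mga as well as for Myc.

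No gene of the other MYC lists passed after either compound in limma with all libraries, while 0.0252% of all genes passed after compound PD (0.0168% as lower). Of 20 cofactor and turnover genes 17 were higher after compound OB (median log2 0.08, against 0.03 over all genes, of which 58.7% were higher), and 13 after compound PD (median 0.07, against 0.06, with 59.1% of all genes higher). The smallest p-values were those of Ruvbl2, a helicase of chromatin complexes (141 ± 9.90 to 168 ± 15.2, log2 0.25), and Ep400, a chromatin remodeler (14.2 ± 0.951 to 17.9 ± 3.05, log2 0.31), after compound OB (SD, n = 3; limma adjusted p = 1.00 each). After compound PD they were those of Pim1, a kinase that stabilises MYC (332 ± 84.4 to 274 ± 33.2, log2 −0.25, adjusted p = 0.766), and Sin3a, the corepressor that MXD proteins recruit (24.9 ± 9.88 to 31.6 ± 9.69, log2 0.36, adjusted p = 0.797; SD, n = 3).

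Of 40 genes reported to be activated by MYC 39 were tested. After compound OB 28 were higher and 11 lower (median log2 0.08, against 0.03 over all genes, of which 58.7% were higher). After compound PD 12 were higher and 27 lower (median −0.07, against 0.06, with 59.1% of all genes higher). These values include PD DMSO replicate 1, which was below all other PD libraries for many of these genes. Npm1 was 603, 1427 and 1338 in PD DMSO and 885, 953 and 1026 with compound PD. Gnl3 was 63.5, 161 and 169, and 87.5, 108 and 105. For others, such as Odc1 and Prdx3, that library was the highest of the DMSO group. Shmt2, a mitochondrial enzyme of one-carbon metabolism, measured 203, 183 and 195 in OB DMSO and 287, 279 and 255 with compound OB (log2 0.50, SE 0.08, limma adjusted p = 0.494; 0.0717 with replicates as a block). Polr1b, a subunit of RNA polymerase I, had means of 24.5 ± 3.74 and 30.7 ± 2.43 (SD, n = 3; log2 0.32, adjusted p = 1.00). After compound PD the smallest p-values were those of Prdx3, a mitochondrial peroxidase (295 ± 22.4 to 223 ± 11.6, log2 −0.40, adjusted p = 0.302), and Odc1, the first enzyme of polyamine synthesis (376 ± 15.6 to 308 ± 12.3, log2 −0.29, adjusted p = 0.447; SD, n = 3). In the fit without PD DMSO replicate 1, 2 genes passed as lower, the nucleolar Gnl3 (log2 −0.72, adjusted p = 0.0394) and Npm1 (log2 −0.54, adjusted p = 0.0416), both named after their values were seen. That fit called 165 genes in all, against 3 with all libraries.

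Of 10 genes reported to be repressed by MYC 9 were tested. After compound OB 8 were lower and 1 higher (median log2 −0.15, against 0.03 over all genes, of which 41.3% were lower). After compound PD 5 were lower and 4 higher (median −0.09, against 0.06, with 40.9% of all genes lower). Gadd45b, a stress-response gene, was 2.65, 1.65 and 1.94 in OB DMSO and 1.42, 1.37 and 1.07 with compound OB (log2 −0.42, SE 0.16, limma adjusted p = 1.00). It was 7.28, 4.94 and 7.73 in PD DMSO and 11.5, 8.5 and 8.02 with compound PD (log2 0.44, SE 0.23, limma adjusted p = 0.584). Btg1, an antiproliferative gene, had means of 4.79 ± 0.378 and 4.23 ± 0.235 in the OB groups (SD, n = 3; log2 −0.15, limma adjusted p = 1.00). Cdkn2b, the CDK4 and CDK6 inhibitor p15, had 1.31 ± 0.659 and 2.38 ± 0.21 in the PD groups (SD, n = 3; log2 0.59, limma adjusted p = 0.556).

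**Figure D4:**
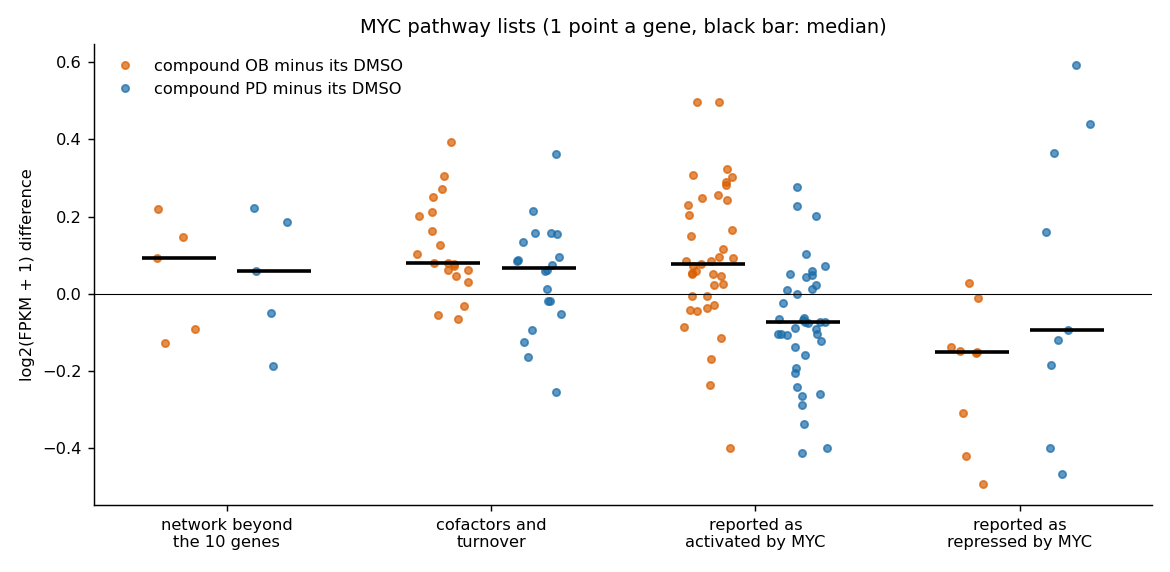
Difference of log2(FPKM + 1) from DMSO (vertical axis) for the tested genes of 4 lists around MYC (horizontal axis), 1 point a gene, after compound OB and compound PD, with a black bar at the median. The medians of the list reported as activated by MYC are 0.08 after compound OB and −0.07 after compound PD, with PD DMSO replicate 1 included.

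The genes most like Ndrg2 and Myc over the 12 libraries were listed among the 7218 genes whose mean reached 5 FPKM in both sets, by Pearson's r of log2(FPKM + 1) with each set centred on its own mean. For Ndrg2 they were Acadvl, an enzyme of fatty acid oxidation (r = 0.90), Nsmaf (0.88), Tpt1 (0.87), Map1lc3b, an autophagosome protein (0.86), and Aqp9, a glycerol and water channel (0.86). Acadvl went from 54.2 ± 3.24 in PD DMSO to 42.8 ± 0.949 with compound PD, and Aqp9 from 12.8 ± 2.94 to 3.81 ± 0.385, while in the OB set Aqp9 was 11.7 ± 1.75 under DMSO against 14.1 ± 1.45 (SD, n = 3). For Myc they were Polr1b (r = 0.97), Mybl2, a cell cycle transcription factor (0.96), Fam120a (0.96), Limd1 (0.96) and Dnaja3, a mitochondrial co-chaperone (0.95). Without PD DMSO replicate 1 the r with Ndrg2 was 0.82 to 0.88 and that with Myc 0.92 to 0.98. The 12 points share their libraries and groups, so these values describe the libraries only.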

How the data were processed

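Values were read from the 12 RNA tables, 1 per library, in FPKM, which the authors deposited with 2 decimals. The submitters' processing notes name STAR and mm10. Not given in the sources used here are the FPKM program, the annotation and the use of strand, so genes that overlap others have uncertain values. The OB set lists 24054 names and the PD set 54752. Left out were 380 OB names cut at a hyphen, whose values had moved to other columns. In each set 27 names turned into dates were left out, and in the PD set 93 later entries of a repeated symbol. The 10 genes are intact in every table. Depth is unknown, since FPKM carries no counts, and precision is read from the SD of 3 libraries. The 2 chromatin samples were not analysed here.

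Compound and matching DMSO libraries were compared by limma 3.58.1 (R 4.3.3, statmod 1.5.0) on log2(FPKM + 1), using a robust fit with a trend of variance on level, where the 6-library mean reached 1 FPKM. Two-sided p-values had Benjamini-Hochberg adjustment over all genes tested, with a threshold of 0.05. The fit was checked on simulated data with independent noise for each gene and library, which hold no shared library effects and no pairing. In the OB set same-numbered libraries were alike in the data. Their deviations from the group means correlated at 0.84, 0.46 and 0.71 over 7917 genes for numbers 1, 2 and 3. Between number 1 and the other numbers r was −0.73 to −0.53. It was 0.40 for DMSO 2 with compound OB 3 and 0.28 for DMSO 3 with compound OB 2. Pairing is thus clearest for number 1 and less sure between numbers 2 and 3. A fit with the number as a block was therefore also run. It changed no OB call of the 10 genes or the lists, and its p-values are given beside Ndrg2, Myc, Mxd1, Mxd4, Mga and Shmt2. Python 3.11.15, pandas 2.3.3, numpy 2.4.6 and matplotlib 3.10.9 were used.

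All 10 genes and every further network gene are named. From the other lists, the 2 genes of smallest p in each set are named, since none passed. Alternatives were a pseudocount of 0.1, no filter, a mean of at least 5 FPKM, median-ratio scaling, quantile normalization, the replicate block and leaving out each library. The genes and lists were chosen with earlier results of these data known.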

Additional observations from a re-analysis of the deposited data

Results flagged for a closer look

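Among the genes of the MYC lists, 2 of 73 tested in both sets (2.74%) had groups that do not overlap in opposite directions after the 2 compounds, against 43 of all 9294 genes tested in both (0.463%). This is a description, and nothing particular to the lists is read from it. Shmt2 was higher in every compound OB library than in OB DMSO (log2 0.50) and lower in every compound PD library than in PD DMSO (log2 −0.26, 190 ± 20.9 to 158 ± 6.97, SD, n = 3). Gadd45b was lower in every compound OB library (log2 −0.42) and higher in every compound PD library (log2 0.44). The difference between the compounds was not tested, and compound, dose and set cannot be told apart. None of the 10 Ndrg, Myc and Mxd genes showed this pattern.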

How the results depend on the processing

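Over all genes, limma called 0 genes after compound OB (372 at an unadjusted p under 0.05) and 7 with the replicate block, and from 0 to 14 when 1 library was left out. It called 3 after compound PD, 0 with no filter on low values, 41 with the replicate block, and from 0 to 165 when 1 library was left out (165 without PD DMSO replicate 1). In the PD set same-numbered libraries correlated at −0.03, −0.06 and −0.03. Both libraries numbered 1 still had the highest summed megakaryocyte markers of their groups (4749 in DMSO and 7809 with compound PD). Their summed erythroid markers were the highest of the group in DMSO (4794) and the lowest with compound PD (1738). What the block means there is unsure, and whether the number marks a shared source was not tested. The count of MYC-activated genes called lower after compound PD was 0 to 2 over the fits without 1 library, and the other list counts stayed at 0 in every fit.

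After compound OB, log2 differences changed sign over the fits without 1 library for Ndrg1 (−0.0476 to 0.44), Ndrg4 (−0.19 to 0.0601), Mycn (−0.30 to 0.40), Mxd3 (−0.0127 to 0.12), Mxd4 (−0.63 to 0.0947), Mxi1 (−0.26 to 0.0456) and Mga (−0.44 to 0.17), and for Mxd3 with quantile normalization (−0.0104). After compound PD they did so for Myc (−0.36 to 0.14), Mxd1 (−0.32 to 0.26), Mxd3 (−0.15 to 0.19), Mxi1 (−0.28 to 0.16), Max (−0.22 to 0.0827), Mlx (−0.10 to 0.19), Mlxip (−0.0436 to 0.35), Mnt (−0.0068 to 0.44) and Mga (−0.50 to 0.0387). Mxd3 was −0.0732 with median-ratio scaling and −0.0908 with quantile normalization, and Mlx −0.0324 with median-ratio scaling. The cause was not tested. Under every alternative run, Ndrg2 and Ndrg3 were below 0 in both sets and Ndrg4 was below 0 in the PD set. Myc and Mxd1 were above 0 in the OB set, and Ndrg1, Mycn and Mxd4 in the PD set, also under every alternative. Where groups do not overlap, only median-ratio scaling and quantile normalization could have changed the sign, so a kept sign says little there. This holds for Ndrg2 in both sets, Myc in the OB set and Ndrg1, Ndrg3 and Ndrg4 in the PD set. Leaving out 1 library moved Ndrg3 after compound OB between −0.09 and −0.04 (without OB DMSO replicate 3).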
